A study of Mus musculus with 8 samples.

Results

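The 8 genes described here encode enzymes of cholesterol synthesis: Hmgcs1, Idi1, Fdps, Fdft1, Sqle, Lss, Cyp51 and Dhcr7. They were taken by symbol, and all 8 were found among the 14496 genes of the embryonic mouse brain table, while 4 (Hmgcs1, Sqle, Lss and Cyp51) were listed among the 9217 genes of the stem cell table. The study compared brains of mouse embryos with a neural tube defect (NTD) with control brains, 3 libraries each. It also compared embryonic stem cells (mESC) kept without folic acid (FA0) with cells given folic acid (FA4), 1 library each. Its title concerns a DNA modification and heterochromatin in neural tube development, so the enzymes are not its stated subject.

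The NTD embryos came from dams fed little folate and injected with the antifolate methotrexate (1.5 mg/kg) at day 7.5 of gestation. Controls carry the label normal saline. The diet of control dams is not given, so whether diet differed along with methotrexate is not known. Any part of diet cannot be told apart from that of methotrexate. Embryos of both groups were examined between days 9.5 and 10.5, and NTD embryos were smaller and delayed to varying degrees. The labels do not say whether replicates came from separate litters or from pooled embryos, so the p-values below measure only the spread between these libraries. The mESC, of the Sv129 background, were split at random into FA0 medium without folate and FA4 medium with 4 mg/L folate. No strain is given for the embryos.

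Cholesterol is built from acetyl-CoA. Hmgcs1 acts near the start of this mevalonate pathway, Idi1 and Fdps make the isoprenoid units, Fdft1 joins them into squalene, Sqle and Lss turn squalene into the first sterol, and Cyp51 and Dhcr7 act in the later conversion to cholesterol. The genes of the pathway are classic targets of SREBP transcription factors, which are held inactive in the endoplasmic reticulum while membrane sterol is plentiful. In the embryo, cholesterol also modifies the Hedgehog ligands that pattern the ventral neural tube, and inherited loss of DHCR7 in humans causes Smith-Lemli-Opitz syndrome, which can include brain malformation.

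The start regions of 4 enzymes are shown. They carry a sequence pattern through which SREBP is known to act on this pathway, or lack its letters. RefSeq held windows of 300 bases, 250 before to 50 after the annotated start, for 5 of the 8 enzymes on build GRCm38.p6. Each is printed in the direction of transcription. Capitals mark TCACNCCAC (a sterol regulatory element pattern), CCAAT (the NF-Y box) and GGGCGG (the Sp1 box), searched on both strands, so that ATTGG and CCGCCC are the same boxes on the other strand. No match shared a base with another. Only exact matches to these letters were searched, so a window without one may still hold a sterol element.
Hmgcs1: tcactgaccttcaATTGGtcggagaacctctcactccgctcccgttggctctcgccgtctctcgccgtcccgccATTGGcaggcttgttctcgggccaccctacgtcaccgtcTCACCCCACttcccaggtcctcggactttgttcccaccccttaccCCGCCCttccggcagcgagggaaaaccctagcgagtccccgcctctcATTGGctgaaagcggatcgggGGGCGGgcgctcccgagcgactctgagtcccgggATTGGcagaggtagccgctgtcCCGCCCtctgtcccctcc
Idi1: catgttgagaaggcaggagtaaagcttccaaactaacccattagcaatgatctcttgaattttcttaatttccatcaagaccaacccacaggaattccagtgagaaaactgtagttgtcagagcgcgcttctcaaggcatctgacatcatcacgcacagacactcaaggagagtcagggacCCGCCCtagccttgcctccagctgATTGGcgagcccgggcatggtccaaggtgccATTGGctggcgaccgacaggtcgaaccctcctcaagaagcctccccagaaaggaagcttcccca
Lss: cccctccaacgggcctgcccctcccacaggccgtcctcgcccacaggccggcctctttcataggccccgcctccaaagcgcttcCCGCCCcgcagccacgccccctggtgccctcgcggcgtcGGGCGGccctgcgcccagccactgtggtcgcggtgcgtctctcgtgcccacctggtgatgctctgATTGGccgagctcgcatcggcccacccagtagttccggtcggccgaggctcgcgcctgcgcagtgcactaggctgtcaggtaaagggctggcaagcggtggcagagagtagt
Cyp51: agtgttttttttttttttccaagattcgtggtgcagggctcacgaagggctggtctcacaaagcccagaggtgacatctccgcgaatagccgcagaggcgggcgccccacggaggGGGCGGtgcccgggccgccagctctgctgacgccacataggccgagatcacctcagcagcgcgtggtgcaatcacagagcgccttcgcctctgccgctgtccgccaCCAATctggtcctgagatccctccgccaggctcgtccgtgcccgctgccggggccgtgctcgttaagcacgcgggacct

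The Hmgcs1 window lies at chr13:119690101-119690400 on the plus strand. It held the only match to the sterol element pattern among the 7 windows of these enzymes. That match, TCACCCCAC, begins at position -137 from the RefSeq start, with 4 CCAAT boxes and 3 GGGCGG boxes around it. The Idi1 window (chr13:8885356-8885655, plus strand) held 2 CCAAT boxes and 1 GGGCGG box. The Lss window (chr10:76531355-76531654, plus strand) held 1 CCAAT box and 2 GGGCGG boxes, and the Cyp51 window (chr5:4104648-4104947, minus strand) held 1 of each. Among 32817 windows of the same length, 1.24% held the sterol element pattern, 37.4% a CCAAT box, 35.6% a GGGCGG box and 12.8% both boxes. For Dhcr7, the 3 windows, which are not printed, held 0, 0 and 2 CCAAT boxes and 1, 0 and 3 GGGCGG boxes. Sqle, Fdps and Fdft1 are named only.

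The brain libraries held 17335564 to 26788304 gene counts in NTD and 18959473 to 26238026 in controls. Levels are given as CPM (counts divided by the TMM-adjusted library size). Markers of other tissues differed between the groups. By the test described below, 1.89% of all genes tested were called higher and 0.998% lower in NTD. The 11 measured trophoblast markers summed to 1300 to 2002 CPM in NTD brains, against 1.57 to 3.03 CPM in control brains. Prl3d2 alone had 828.8 to 1506.6 CPM in NTD. Prl3d3, Prl8a9 and Tpbpa had no count in any control, and 9 of the 11 were called higher. The 15 yolk sac markers summed to 13747 to 17962 CPM in NTD, against 325 to 1092 CPM in controls, with 6 called higher. Afp alone had 7045.9 to 7750.5 CPM in NTD and was not called (edgeR adjusted p = 0.106), and the groups overlapped for Alb. The 12 neuron markers summed to 851 to 969 CPM in NTD and 4306 to 6094 CPM in controls, with 10 called lower. The 12 neural progenitor markers summed to 1085 to 1672 CPM in NTD and 2473 to 2937 CPM in controls, with 3 called lower. All NTD libraries carry the trophoblast and yolk sac markers, so no NTD value below can be given without such a library, and their part in the results was not tested.

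All 8 enzymes passed the filter on low counts, and none passed the test between NTD and control brains (edgeR's quasi-likelihood F-test, adjusted p under 0.05 by Benjamini-Hochberg over 11626 genes). The share called among all genes tested was 2.89%, with 1.89% higher and 0.998% lower in NTD. At an unadjusted p under 0.05, 1 of the 8 passed, Hmgcs1, against 15.0% of all genes. DESeq2 and limma-voom called 0 of the 8 as well. The estimates were below 0 for 6 enzymes and above 0 for 2, with a median log2 fold change of -0.22, against -0.02 over all genes tested. In 1 of the 8, Hmgcs1, the NTD libraries all lay below the control libraries, an arrangement found in 12.1% of all genes. Separation in either direction was found in 24.5%.

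**Figure D1:**
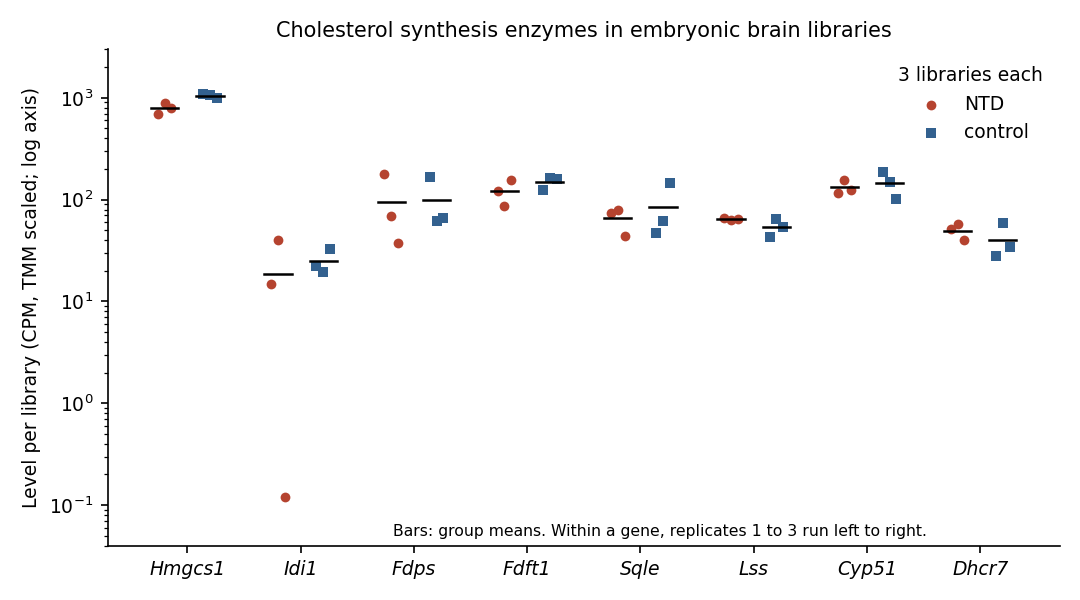
Level of each enzyme in each brain library (CPM after TMM scaling, log axis), with NTD libraries as red circles, control libraries as blue squares and group means as bars. Hmgcs1 stands far above the others with its groups apart, and Idi1 in NTD replicate 3 lies at 0.12 CPM.

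Hmgcs1 (ENSMUSG00000093930, chr13:119690379-119708260, plus strand) makes HMG-CoA, the substrate of the rate-limiting step of the pathway. It had 688, 898 and 796 CPM in NTD replicates 1 to 3, against 1090, 1063 and 1004 CPM in control replicates 1 to 3. The highest NTD library lay below the lowest control library. The means were 794 ± 105 CPM in NTD and 1052 ± 43.9 CPM in controls (SD, n = 3 each). The fitted log2 fold change was -0.41 ± 0.18 (SE), with a 95% interval of -0.81 to -0.01, which is 0.755-fold with bounds of 0.572 and 0.995. By edgeR's quasi-likelihood test the unadjusted p was 0.047 and the adjusted p 0.323, so the gene was not called. Neuron and progenitor markers were lower in the same NTD libraries, as given above, and in these bulk samples fewer cells of a type and less RNA per cell cannot be told apart.

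Hmgcs1 supplied most of the counts of the set. The 8 enzymes summed to 1314, 1451 and 1261 CPM in NTD libraries, against 1714, 1641 and 1599 CPM in control libraries, and Hmgcs1 made up 52.4% to 63.1% of the sum in NTD and 62.8% to 64.7% in controls. Without Hmgcs1, the other 7 summed to 626, 554 and 466 CPM in NTD, against 624, 579 and 595 CPM in controls. With Hmgcs1 the sums of the groups were apart, and without it they overlapped.

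Idi1 and Fdps make the isoprenoid building blocks, and in NTD they had the widest spread of the 8, with SDs of log2 CPM of 4.04 for Idi1 and 1.14 for Fdps. In controls the spread was widest for Sqle (0.85), then Fdps (0.81), and Idi1 had 0.38. Idi1 (ENSMUSG00000058258, chr13:8885501-8892451, plus strand), which isomerises isopentenyl diphosphate, had 15.0, 40.3 and 0.12 CPM in NTD, against 22.2, 19.6 and 32.6 CPM in controls. The counts behind these were 383, 1040 and 2 in NTD and 515, 537 and 624 in controls. NTD replicate 3 was nearly empty for this gene, while NTD replicate 2 was the highest of all 6 libraries. The log2 fold change was -0.42 ± 1.25 (SE; interval -3.23 to 2.39; edgeR adjusted p = 0.947). It was 0.06 without NTD replicate 3 and -1.82 without NTD replicate 2. With all libraries kept it was -1.82 by limma-voom and -1.40 with a replicate block, and it was called in none of these fits. A near-empty library was not particular to Idi1: of 6440 genes averaging 500 counts or more, 12, 18 and 35 had 3 counts or fewer in NTD replicates 1 to 3, and 99, 35 and 8 in control replicates 1 to 3.

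Fdps (ENSMUSG00000059743, chr3:89093588-89101959, minus strand), which makes farnesyl diphosphate, had 180, 69.7 and 37.3 CPM in NTD, against 169, 62.2 and 66.2 CPM in controls. Replicate 1 was the highest library in both groups, and the other 4 libraries lay between 37.3 and 69.7 CPM. The groups overlapped throughout, with means of 95.5 ± 74.6 CPM in NTD and 99.1 ± 60.4 CPM in controls (SD, n = 3 each). The log2 fold change was -0.05 ± 0.59 (SE; interval -1.38 to 1.27). Its sign depended on single libraries: it was 0.07 without NTD replicate 2, 0.27 without NTD replicate 3 and 0.58 without control replicate 1, but -0.95 without NTD replicate 1. In the GENCODE M21 annotation, 1124 bases of its exons (26.7%) are shared with Gm43738 on the same strand, and how shared reads were counted is not given in the sources used here.

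Fdft1 and Sqle carry the pathway through squalene. Fdft1, or squalene synthase (ENSMUSG00000021273, chr14:63145150-63179578, minus strand), had 123, 87.5 and 156 CPM in NTD, against 126, 162 and 161 CPM in controls. NTD replicates 1 and 2 were the lowest libraries, but NTD replicate 3 lay above control replicate 1, so the groups overlapped. The log2 fold change was -0.30 ± 0.29 (SE; interval -0.94 to 0.35; edgeR adjusted p = 0.757), and it was -0.60 without NTD replicate 3 and -0.19 without NTD replicate 2. Fdft1 shares 774 exon bases (18.3%) with Ctsb, a lysosomal protease gene on the opposite strand. Ctsb had 591, 636 and 671 CPM in NTD, against 263, 231 and 259 CPM in controls (log2 fold change 1.33, edgeR adjusted p = 0.00638). The strand setting of the counting is not given, so reads of Fdft1 and Ctsb in that overlap cannot be told apart and the Fdft1 value is uncertain.

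Sqle, or squalene epoxidase (ENSMUSG00000022351, chr15:59315077-59331192, plus strand), had 74.1, 79.1 and 43.7 CPM in NTD, against 47.1, 61.7 and 147 CPM in controls. Control replicate 3 stood above the other 5 libraries, and NTD replicate 3 was the lowest. The log2 fold change was -0.37 ± 0.47 (SE; interval -1.42 to 0.67; edgeR adjusted p = 0.833), and it was 0.27 without control replicate 3 and -0.66 without control replicate 1.

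Lss, Cyp51 and Dhcr7 make and process the sterol ring. Lss, or lanosterol synthase (ENSMUSG00000033105, chr10:76531588-76557138, plus strand), had 65.8, 62.6 and 64.6 CPM in NTD, against 43.3, 65.3 and 54.2 CPM in controls. The NTD libraries lay close together, and control replicate 2 fell among them. The means were 64.3 ± 1.63 CPM in NTD and 54.3 ± 10.96 CPM in controls (SD, n = 3 each), a log2 fold change of 0.24 ± 0.33 (SE; interval -0.50 to 0.99). It was 0.11 without control replicate 1 and 0.40 without control replicate 2.

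Cyp51, the demethylase that starts the trimming of lanosterol (ENSMUSG00000001467, chr5:4081145-4104746, minus strand), had 117, 157 and 124 CPM in NTD, against 189, 148 and 101 CPM in controls. Control libraries were both the highest and the lowest. The log2 fold change was -0.14 ± 0.30 (SE; interval -0.80 to 0.53), and it was 0.10 without control replicate 1 and -0.35 without control replicate 3. Cyp51 shares 166 exon bases (3.76%) with Akap9 on the opposite strand, and Akap9 was not called.

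Dhcr7, which reduces the last precursor to cholesterol (ENSMUSG00000058454, chr7:143823145-143848410, plus strand), had 51.4, 57.6 and 40.3 CPM in NTD, against 27.8, 59.5 and 33.9 CPM in controls. Control replicate 2 was above every NTD library and the other controls were below them. The log2 fold change was 0.30 ± 0.44 (SE; interval -0.68 to 1.28; edgeR adjusted p = 0.866), and it was 0.09 without control replicate 1 and 0.69 without control replicate 2.

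Hmgcs1 shares 557, Idi1 323 and Lss 381 exon bases with other annotated transcripts on the opposite strand that are not analysed here, and those reads are uncertain in the same way.

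**Figure D2:**
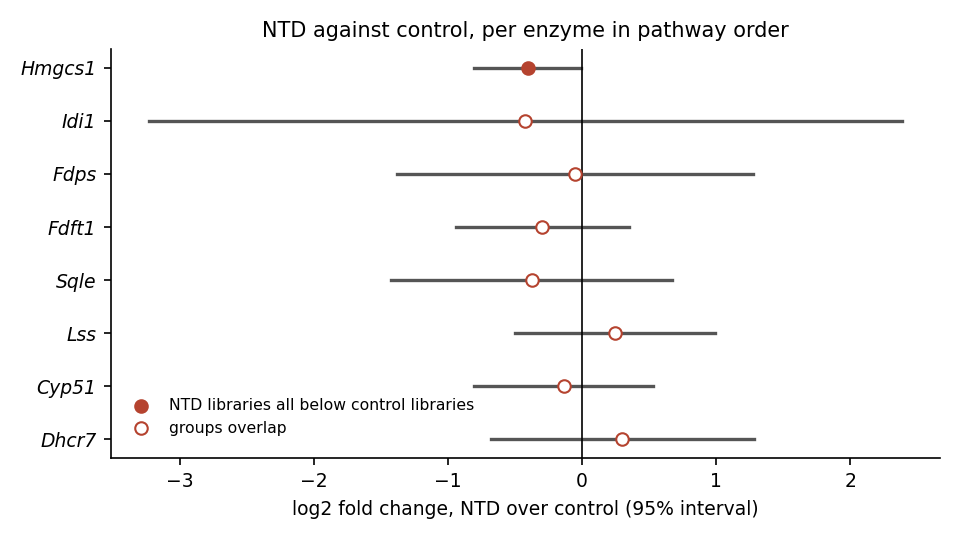
Fitted log2 fold change of each enzyme, NTD over control, with its 95% interval, in pathway order from top to bottom. The filled circle marks Hmgcs1, the enzyme whose NTD libraries all lay below the controls; the intervals of the other 7 cross 0, from the narrow ones of Fdft1 and Cyp51 to that of Idi1 (-3.23 to 2.39).

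The width of the intervals differed by enzyme. For 4 of the 8 (Hmgcs1, Fdft1, Lss and Cyp51) the whole 95% interval lay within 1 log2 unit of 0. The lower bound of Fdft1 (-0.94) and the upper bound of Lss (0.99) came close to that limit. The Fdft1 value is also uncertain through its overlap with Ctsb. For Idi1, Fdps, Sqle and Dhcr7 it reached further, so a change of more than 1 log2 unit is not excluded for these 4. The median SD of log2 CPM between replicates was 0.34 for the enzymes in NTD and 0.42 in controls, against 0.53 in NTD and 0.47 in controls over the 8441 tested genes averaging 10 CPM or more. NTD replicate 3 was the lowest of the 6 libraries for 3 enzymes, Idi1, Fdps and Sqle.

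Per kilobase of the principal transcript, the enzymes kept nearly the same order in both groups. Hmgcs1 had 229 ± 30.2 CPM per kb in NTD and 304 ± 12.7 in controls (SD, n = 3 each), above every library of every other enzyme. Fdps came next, with 69.1 CPM per kb in NTD and 71.7 in controls, followed by Cyp51 with 33.8 in NTD and 37.1 in controls and Fdft1 with 33.0 in NTD and 40.5 in controls. Sqle had 23.8 CPM per kb in NTD and 30.9 in controls, Dhcr7 had 17.7 in NTD and 14.4 in controls, and Lss had 13.8 in NTD and 11.6 in controls. Idi1 was lowest, with 6.10 CPM per kb in NTD and 8.19 in controls. In NTD, the libraries of neighbours in this order overlapped from Fdps down to Dhcr7, and in controls from Fdft1 down to Idi1. The order depends on the length used. Over the union of all exons Fdps ranked 4 in both groups, and in controls Idi1 ranked 6 and Lss was lowest.

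The enzymes differed in which libraries were high or low. Their mean profile, each gene centred on its own mean log2 CPM, was lowest in NTD replicate 3 (-0.95), where Idi1 alone was at -5.73. Among 8373 genes of at least 10 CPM, those nearest to that mean profile were Snap47, Ykt6, Capn10, Selk and Gtf2h5, at root mean square distances of 0.11 to 0.12 log2 units over the 6 libraries, against a median of 0.74. The enzymes themselves lay at distances of 0.41 (Hmgcs1) to 2.18 (Idi1), so the mean profile describes no single enzyme closely.

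The other enzymes of the pathway gave no call either. Of 13 listed, 11 were tested, with 0 higher and 0 lower and a median log2 fold change of 0.07. With the 8 enzymes above, 19 synthesis enzymes were tested and 0 called, with a median of -0.05. Sc5d, a sterol desaturase, had 43.9, 1.05 and 58.7 CPM in NTD, against 13.0, 3.80 and 3.18 CPM in controls, and NTD replicate 2 was the lowest of all (edgeR adjusted p = 0.419). In the isoprenoid branch that leaves the pathway at Fdps, 0 of 6 tested genes were called, with a log2 fold change of 0.24 for Fnta, a farnesyltransferase subunit, and -0.44 for Pdss2.

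The genes that control SREBP also gave 0 calls of 7 tested, with a median log2 fold change of 0.30. Mbtps2, a protease that releases SREBP from the membrane, had 18.3, 17.3 and 48.6 CPM in NTD, against 8.50, 12.5 and 7.67 CPM in controls. Its groups were apart (log2 fold change 1.55, edgeR adjusted p = 0.378). NTD libraries all lay above the controls in 1 of the 7 genes, against 12.4% of all genes tested. For Mbtps1, the protease that cuts before Mbtps2, the log2 fold change was -0.78 with overlapping groups.

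**Figure D3:**
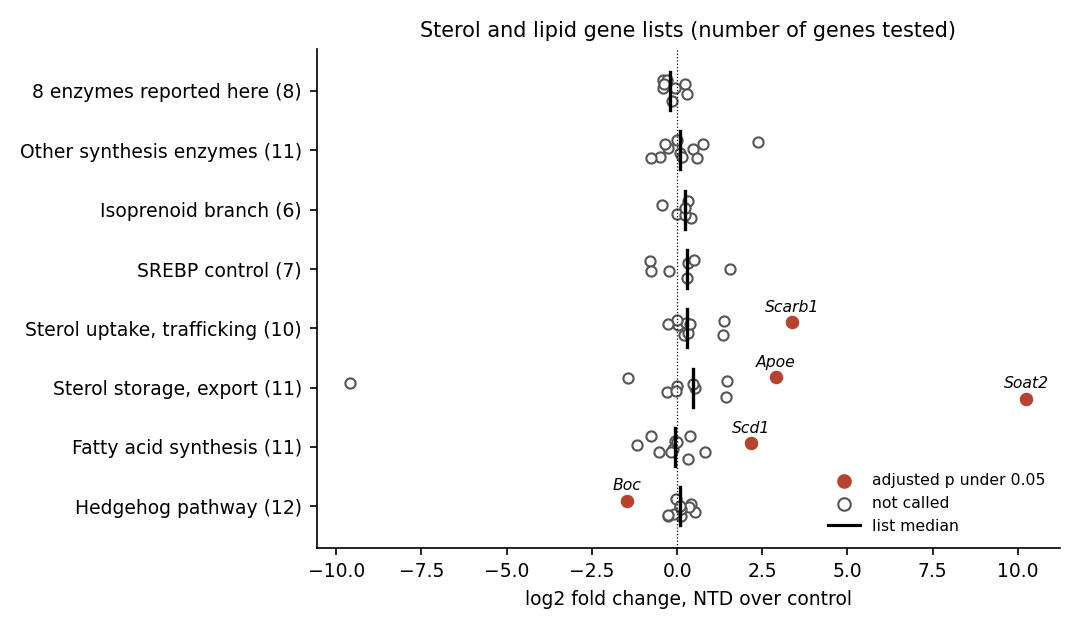
Log2 fold change, NTD over control, of each tested gene in 8 lists (points, with list medians as vertical bars and called genes filled and named). No gene was called among the synthesis enzymes, the isoprenoid branch or SREBP control; the called genes were Scarb1, Soat2, Apoe, Scd1 and Boc, and the open point at the far left is Ch25h, which had 0 counts in all NTD libraries.

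Single genes were called in the lists around the pathway, against 1.89% called higher and 0.998% called lower in NTD among all genes tested. In sterol uptake and trafficking, 1 of 10 tested genes rose, Scarb1, the receptor for high-density lipoprotein. Scarb1 had 93.1, 35.1 and 93.7 CPM in NTD, against 9.66, 2.85 and 8.82 CPM in controls (log2 fold change 3.38 ± 0.64, SE; edgeR adjusted p = 0.0263). Npc2, which binds cholesterol in lysosomes, had 319, 155 and 190 CPM in NTD, against 60.0, 104 and 99.7 CPM in controls. Its groups were apart, with an edgeR adjusted p of 0.0835. NTD libraries all lay above the controls in 2 of these 10 genes, against 12.4% of all genes tested. In sterol storage, export and oxysterol genes, 2 of 11 rose. Soat2, which esterifies cholesterol in gut and liver, had 57.0, 36.8 and 30.5 CPM in NTD, against 0, 0.0365 and 0.0522 CPM in controls (edgeR adjusted p = 0.00198). These are 2917 counts in NTD and 2 in controls, a ratio of 1495 with an interval of 414 to 12352 that covers counting error only. The interval of the edgeR fit, from the spread between libraries, was 219.5-fold to 6635-fold. Apoe, a lipoprotein of sterol transport, had 1041, 420 and 937 CPM in NTD, against 46.0, 123 and 151 CPM in controls (log2 fold change 2.91 ± 0.48, SE; edgeR adjusted p = 0.0145).

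In fatty acid synthesis, another branch under SREBP, 1 of 11 tested genes rose, Scd1, a desaturase. Among all genes tested, 1.89% were called higher and 0.998% lower. Scd1 had 95.8, 78.9 and 160 CPM in NTD, against 20.2, 32.8 and 21.9 CPM in controls (log2 fold change 2.16 ± 0.40, SE; edgeR adjusted p = 0.0232). Fads1, another desaturase, lay lower in all NTD libraries (log2 fold change -0.75, edgeR adjusted p = 0.154). That arrangement held in 2 of the 11 genes, against 12.1% of all genes tested. In the Hedgehog list, 1 of 12 fell, the co-receptor Boc, with 63.4, 52.9 and 39.5 CPM in NTD, against 187, 117 and 132 CPM in controls (log2 fold change -1.48 ± 0.32, SE; edgeR adjusted p = 0.043). Gli1, a transcriptional target of the pathway, was not called (log2 fold change 0.42). Without NTD replicate 1 all 5 calls were lost, with edgeR adjusted p-values of 0.144 for Scarb1, 0.106 for Apoe, 0.0988 for Scd1, 0.102 for Boc and 0.0514 for Soat2. Without NTD replicate 3 or control replicate 2, those of Scarb1 (0.118 and 0.069), Apoe (0.0861 and 0.0843), Scd1 (0.0998 and 0.054) and Boc (0.103 and 0.0931) were lost. Without control replicate 3, Scarb1, Scd1 and Boc were lost, without control replicate 1, Scd1 and Boc, and without NTD replicate 2, Boc. The yolk sac and trophoblast marker sums given above were high in the same NTD libraries, and their part in these calls was not tested.

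**Figure D4:**
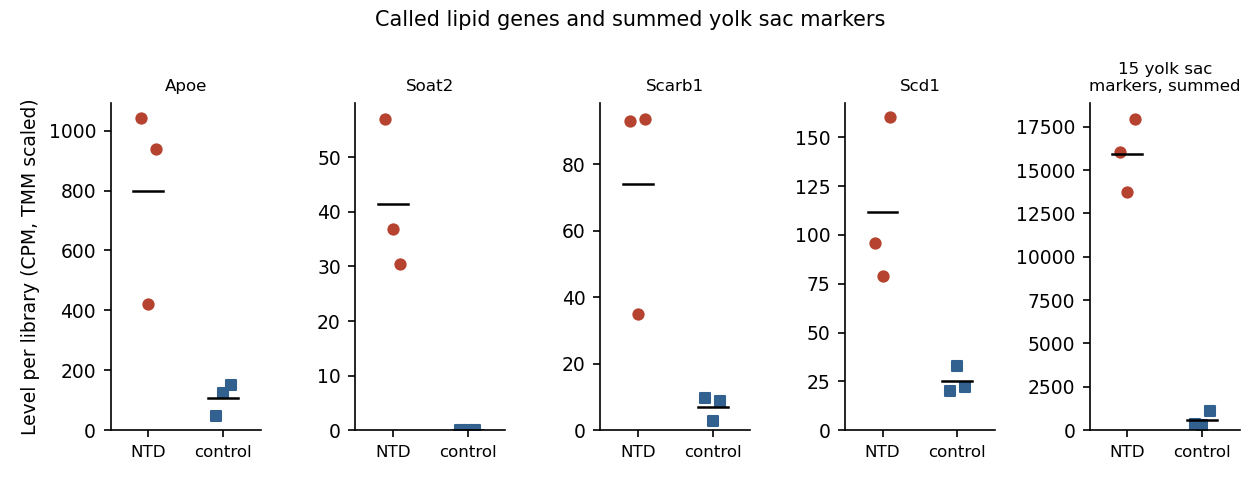
Level of Apoe, Soat2, Scarb1 and Scd1 in each brain library, with the summed level of 15 yolk sac markers at the right (CPM after TMM scaling, linear axes from 0, bars at group means). In every panel the 3 NTD libraries (left, red) lie above the 3 control libraries (right, blue).

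In mESC, where 1 library a group allows no test, the 4 listed enzymes lay close together between FA0 and FA4. The table listed 7 of 8 pluripotency markers. Hmgcs1 had 27.8 FPKM in FA0 and 32.8 FPKM in FA4, and Sqle had 27.7 FPKM in FA0 and 25.5 FPKM in FA4. Lss had 12.7 FPKM in FA0 and 13.1 FPKM in FA4, and Cyp51 had 9.39 FPKM in FA0 and 9.60 FPKM in FA4. FPKM is per length, so the order of levels was Hmgcs1, Sqle, Lss and Cyp51 in both libraries, with Hmgcs1 and Sqle nearly equal in FA0.

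The log2 ratios of FPKM + 1, FA0 over FA4, were -0.23 for Hmgcs1, 0.12 for Sqle, -0.05 for Lss and -0.03 for Cyp51. None of the 4 passed 1.5-fold, against 6.51% of 6771 genes averaging 5 FPKM or more (3.25% lower and 3.26% higher in FA0), and their median was -0.04, against 0.00 over all of those genes. Scaled for depth, the estimated counts of Hmgcs1 (665 in FA0 and 593 in FA4) gave a ratio of 0.840 with a 95% counting interval of 0.751 to 0.940. This interval lies below 1. For Sqle (559 in FA0 and 385 in FA4) the ratio was 1.09 (0.954 to 1.24), for Lss (433 in FA0 and 336 in FA4) 0.966 (0.836 to 1.12) and for Cyp51 (270 in FA0 and 207 in FA4) 0.978 (0.813 to 1.18), and these intervals include 1. They cover counting error only, not the spread between cultures.

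**Figure D5:**
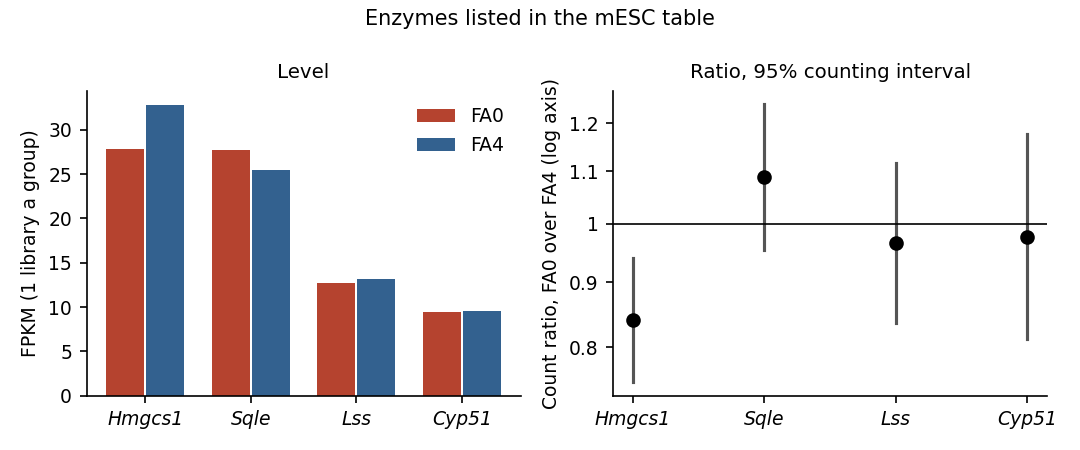
The 4 enzymes listed for mESC, with FPKM in FA0 (left bar, red) and FA4 (right bar, blue) and, in the second panel, the depth-scaled count ratio, FA0 over FA4, with its 95% counting interval on a log axis. Hmgcs1 has the lowest ratio, 0.840, and its interval alone does not reach 1.

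Among related genes in mESC averaging 5 FPKM or more, the gene with the largest difference of log2(FPKM + 1) in each list was taken. In other synthesis enzymes it was Pmvk, phosphomevalonate kinase, with 9.86 FPKM in FA0 and 5.80 FPKM in FA4, from 86 estimated counts in FA0 and 38 in FA4. Ebp, a sterol isomerase of the same list, differed the other way, with 11.3 FPKM in FA0 and 18.4 FPKM in FA4, from 144 estimated counts in FA0 and 176 in FA4 (log2 ratio -0.66, against 0.68 for Pmvk). In SREBP control it was Insig1, an SREBP target that retains SREBP in the endoplasmic reticulum, with 10.1 FPKM in FA0 and 13.8 FPKM in FA4. Log2 ratios were 1.08 for Coq2 of the isoprenoid branch, -0.19 for Osbp of sterol trafficking, 0.46 for Abca1 of export, -0.53 for Elovl5 of fatty acid elongation and 0.70 for Cdon, a Hedgehog co-receptor. These picks depend on the measure. By depth-scaled count ratios the log2 value of Cdon was 0.27, under the 0.51 of Hhip, that of Elovl5 was -0.40, against -0.88 for Acaca, and that of Abca1 was 0.52, against 0.63 for Soat1. The floor of 5 FPKM also left out genes with larger log2 ratios than the picks of their lists. These were -1.25 for Hsd17b7 (11 estimated counts in FA0 and 54 in FA4) and 0.92 for Soat2 (37 in FA0 and 9 in FA4). Mylip of sterol uptake had 0.20 (90 in FA0 and 55 in FA4). Ebp, Hhip, Acaca, Soat1, Hsd17b7, Soat2 and Mylip were chosen for mESC after their values were seen.

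The stem cell table also pairs genes with peaks of a second assay, which the labels do not name. Of its 23089 entries, 23040 carry a peak difference, so a listed enzyme nearly always has a peak. Whether the enzymes not listed lack a peak or RNA cannot be told, and the mESC shares above cover listed genes only. In the authors' deposited table, 5 peaks belong to 4 of the enzymes, and all 5 have a log2 difference, Case less Control, below 0. In the authors' deposited table the difference was -0.99 for the Hmgcs1 peak (adjusted p = 0.000577), -1.38 and -1.43 for the Sqle peaks (adjusted p = 1.67e-06 and 5.29e-08), -0.70 for the Lss peak (adjusted p = 0.187) and -1.28 for the Cyp51 peak (adjusted p = 0.00841). Of these 5, 4 passed an adjusted p under 0.05 in the authors' deposited table. Over all 23040 peaks of the authors' deposited table, 66.6% were below 0 and 41.9% were below 0 with an adjusted p under 0.05, with a median of -0.76, against -1.28 for the peaks of the enzymes. The Sqle peaks share a gene and are not independent.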

How the data were processed

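The members and gene lists were chosen with earlier results of these data known. Libraries were depleted of ribosomal RNA, made with a low input kit and read as 150 bp pairs, per the labels' protocols. The submitters' processing notes name mm10 as the build and HISAT2 2.0.4, cutadapt 1.9.3, edgeR and HTSeq 0.9.1 as tools. Which step each tool served is not given in the sources used here, nor are the annotation or strandedness. The brain table as deposited holds whole read counts, with 1 row a gene. For mESC the authors deposited estimated counts, FPKM values, a log2 difference per peak and adjusted p-values. Its 9217 genes stand in 23089 entries, so each gene was read once. The columns equal to the table's Case mean were taken as FA0, which the labels call the case group, and the Control columns as FA4. A further 10 columns of per-sample values were not used.

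Brain counts were scaled by TMM, filtered with filterByExpr and tested with edgeR 4.0.16 (quasi-likelihood, robust) in R 4.3.3 over NTD and control alone, with Benjamini-Hochberg adjustment over 11626 genes and a threshold of 0.05. DESeq2 1.42.0 and limma 3.58.1 (voom) were alternatives, with other scalings, filters, a replicate block and left-out libraries. mESC values were compared as log2(FPKM + 1), which understates changes of low genes; count ratios were scaled by the relative depth, 1.334 for FA0 over FA4, from the ratio of estimated counts to FPKM over 2953 genes, with exact binomial intervals at 95% that cover counting error only. Listed mESC genes held 5247136 estimated counts in FA0 and 3901963 in FA4. Positions and transcript lengths come from GENCODE M21 (GRCm38) for 14420 of the 14496 genes.

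All 8 enzymes were named. Further genes were those called in each list plus those with the smallest p, up to 2 a list, the 5 nearest profiles, and for mESC the gene with the largest absolute ratio per list among those averaging 5 FPKM or more. A gene that this rule names is not reported here.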

Additional observations from a re-analysis of the deposited data

How the results depend on the processing

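None of the 8 enzymes was called under any of 14 alternative fits, 112 combinations in all, with a lowest adjusted p of 0.1701 (Hmgcs1, DESeq2). Hmgcs1 stayed below 0 in all 14, from -0.58 to -0.38. Its unadjusted p by edgeR's quasi-likelihood test did not stay under 0.05. It was 0.058 with no filter, 0.0554 with the replicate block and 0.105 without NTD replicate 1. Without both control replicate 1 and NTD replicate 3 it was 0.116. Other fits gave lower values, such as 0.0193 with library totals alone and 0.0252 without NTD replicate 2. The sign changed in 9 combinations, none of them called, and the lowest values with 1 library left out were -0.946 for Fdps, -1.815 for Idi1, -0.349 for Cyp51 and -0.662 for Sqle. Fdps was 0.069 without NTD replicate 2, 0.268 without NTD replicate 3, 0.577 without control replicate 1 and 0.949 without both control replicate 1 and NTD replicate 3. Idi1 was 0.056 without NTD replicate 3 and 0.076 without both libraries. Cyp51 was 0.096 without control replicate 1 and 0.134 without both. Sqle was 0.267 without control replicate 3. The median of the enzymes, -0.22, ran from -0.38 to -0.05 with 1 library left out and was 0.09 without both libraries. Fewer samples enter these fits; the cause was not tested further.

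Counts over all genes, 220 higher and 116 lower, were 609 and 427 with DESeq2. Leaving out 1 library gave 33 to 225 higher and 17 to 78 lower, lowest without NTD replicate 1, and leaving out both control replicate 1 and NTD replicate 3 gave 250 and 111. The replicate numbers shared by the groups gave no clear sign of pairing. Correlations were -0.02, 0.09 and 0.03 for same-numbered libraries, against -0.10 to 0.04 for differently numbered ones, so the highest was a same-numbered pair. A fit with the replicate block called 132 higher and 73 lower, and 0 of the 8 enzymes. The block ended the calls of Apoe (adjusted p = 0.0692), Scd1 (0.0643) and Boc (0.0644). Of the called lipid and Hedgehog genes, Scarb1 missed the threshold in 6, Apoe in 5, Scd1 in 7, Boc in 8 and Soat2 in 1 of the 14 alternatives, all with the sign kept. Npc2 passed with DESeq2 (adjusted p = 0.00817). The mESC ratios of the 4 enzymes kept their sign with pseudocounts of 0.1 and 5, after centring and as count ratios. With 3 libraries a group, the intervals of Idi1, Fdps, Sqle and Dhcr7 are wide.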

Other observations

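Ch25h, which makes an oxysterol that holds SREBP inactive, was chosen after its values were seen. It had 0 counts in all 3 NTD libraries, against 6.73, 4.13 and 1.67 CPM in control replicates 1 to 3. Set against a level of 3 counts per NTD library, the control mean was 30.3-fold higher, which leaves out the spread between libraries. The interval of the edgeR fit, NTD over control, takes in that spread and was 9.97e-06-fold to 0.17-fold. With an adjusted p of 0.171 in edgeR's quasi-likelihood test, Ch25h was not called. The gene is a low one, and the counts behind the control values are small.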
